A study of Rattus norvegicus with 6 samples.

Results

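The mast cell genes examined here are 10 symbols of textbook mast cell genes, chosen with earlier results of these data known. They are the tryptases Tpsab1 and Tpsb2, the chymases Cma1 and Mcpt1, the carboxypeptidase Cpa3 and the IgE receptor chains Fcer1a and Ms4a2. The others are the histamine-forming enzyme Hdc, the growth factor receptor Kit and the transcription factor Gata2. The deposited table, which holds 22835 genes, has a row under the exact symbol for 9 of the 10, and all 9 passed the filter on low counts. Mcpt1 has no row under that symbol and is not analysed here. In the RefSeq annotation of GRCr8, Mcpt1 and rMCP-1 are also synonyms of the gene Mcpt1l1, which is in the table and is described below as a relative, not as a member.

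Whole lungs of female rats aged 12 weeks, on an SD background, were sequenced from 3 ND1_cKO and 3 control animals. In ND1_cKO rats, labelled DP in the sample titles, an Sftpc-Cre driver was combined with the LSL-DdCBE-ND1 allele, so that Cre, made where the Sftpc promoter is active (chiefly alveolar epithelium that secretes surfactant), released a base editor directed at mitochondrial ND1. Controls were littermates with the ND1LSL allele per the series description, and their genotype label is WT. Since ND1_cKO lungs carry Cre and the active editor as well as the edit, effects of the 3 cannot be told apart. The study names the model one of pulmonary fibrosis.

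Mast cells mature in tissues from bone marrow progenitors under Kit signalling, and they store proteases, histamine and heparin in granules that are released when antigen bridges IgE on the Fc epsilon receptor. In rodents they are commonly divided into a connective tissue type, which lies around vessels, airways and under the pleura and holds tryptase, carboxypeptidase A3 and chymases such as rat mast cell protease 1, and a mucosal type, which is known in the rat for mast cell protease 2. Mast cells have been described in fibrotic lung in patients and in animal models.

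Between 36526203 and 37093879 counts were assigned to genes in ND1_cKO libraries and between 28669995 and 38303274 in control libraries. ND1, the targeted gene, had 3679, 3427 and 3737 CPM (counts scaled to library size with TMM factors) in ND1_cKO replicates 1 to 3, against 2679, 2432 and 3083 CPM in control replicates 1 to 3. Since the editor converts a base and does not delete the gene, this level does not check the labels. Sftpc averaged 8162 ± 2599 CPM in ND1_cKO and 14009 ± 1322 CPM in control (SD, n = 3 each), so this type 2 cell marker was abundant in every library. Sftpc was lower in every ND1_cKO library than in any control, and lowest in ND1_cKO replicate 3, at 5301 CPM (edgeR adjusted p = 0.133). On the first principal component of log2 CPM, which held 46.6% of the variance, ND1_cKO replicate 3 lay at -65.2, far from the other ND1_cKO libraries at -25.3 and -13.7, and the controls lay between 31.1 and 38.3.

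The 4 granule protease members and the IgE receptor chains Fcer1a and Ms4a2 had higher levels in every ND1_cKO lung than in any control lung, by log2 fold changes of 2.17 to 4.93, while Kit and Gata2 were lower in every ND1_cKO lung and Hdc overlapped. None of these differences passed the edgeR quasi-likelihood test with Benjamini-Hochberg adjustment over all genes, and the ND1_cKO lungs differed widely among themselves. The count past adjusted p of 0.05 was 0 of 9 members, against 2.42% of all 16548 genes tested. At an unadjusted p under 0.05 it was 8 of 9 members, against 21.4% of all genes. DESeq2 called 8 of 9 members, against 11.5% of all genes. It called 6 members higher, against 5.97% of all genes, and 2 lower, against 5.56%. Limma-voom called 0 of 9, against 2.27% of all genes, and 0 of 9 with library quality weights, against 5.74%. The median log2 fold change of the 9 members was 2.36, against 0.01 over all genes tested, and 6 of 9 exceeded 2, as did 1.08% of all genes. Of the members 6 of 9 lay entirely above the controls and 2 of 9 entirely below, against 14.1% of all genes in each direction. Since the members were chosen with earlier results of these data known, these shares describe the set and do not test it. In whole-lung libraries, more cells of a type and more RNA per cell cannot be told apart.

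**Figure D1:**
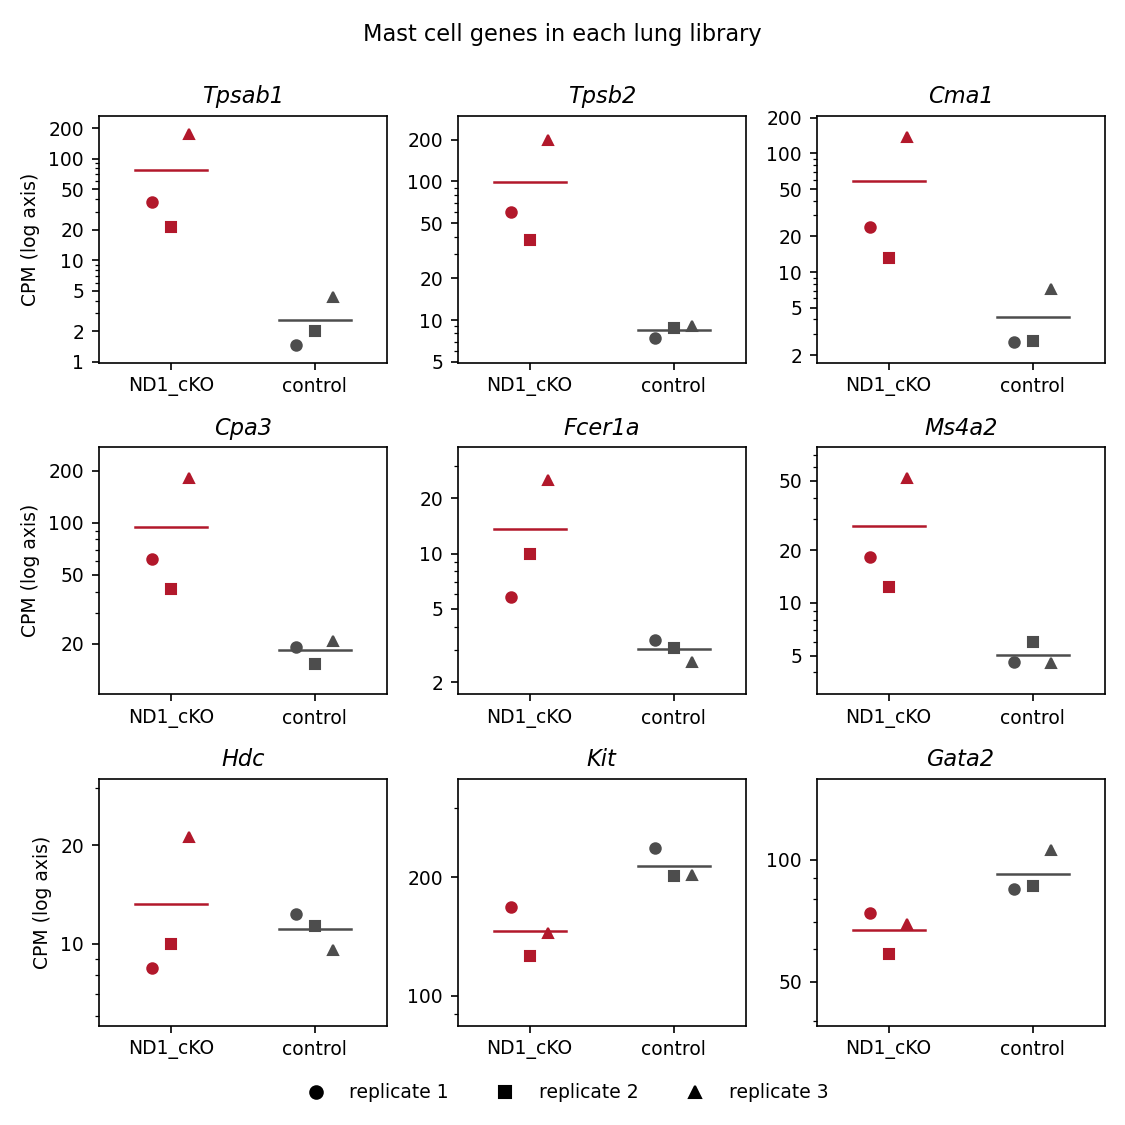
Level of each of the 9 mast cell genes in every library, in CPM on a log axis; each point is 1 rat, its shape gives the replicate number, and the line is the group mean. The ND1_cKO points of the 4 protease genes and of Fcer1a and Ms4a2 all sit above the control points, those of Kit and Gata2 all sit below, and those of Hdc overlap.

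Among the proteases, Tpsab1, a tryptase that is stored as a tetramer on heparin, had 37.7, 21.1 and 175 CPM in ND1_cKO replicates 1, 2 and 3, against 1.47, 2.02 and 4.3 CPM in control replicates 1, 2 and 3. The lowest ND1_cKO lung thus stood well clear of the highest control lung, and the ND1_cKO lungs were 14.5, 8.13 and 67.4 times the control mean. Its log2 fold change was 4.93 ± 1.00 (SE, n = 3 rats per genotype, edgeR adjusted p = 0.0641), the 10th highest of 16548 genes. Tpsb2, the neighbouring tryptase gene, had 60.1, 37.5 and 197 CPM in ND1_cKO and 7.39, 8.75 and 9.09 CPM in control. The controls were close together and the groups did not overlap, with a log2 fold change of 3.55 ± 0.67 (adjusted p = 0.0553). The ratio of Tpsab1 to Tpsb2 CPM was 0.627, 0.564 and 0.888 in ND1_cKO and 0.199, 0.231 and 0.473 in control, so the pair did not differ by the same factor. Tpsab1 and Tpsb2 are close relatives and may share reads.

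Cma1, a chymase that in rodents is kept with carboxypeptidase A3 in connective tissue mast cells, had 24.1, 13.1 and 137 CPM in ND1_cKO, against 2.60, 2.62 and 7.26 CPM in control. Control replicate 3 was the highest control, and ND1_cKO replicate 2 still stood above it (log2 fold change 3.82 ± 1.05, adjusted p = 0.114). Cpa3, the granule carboxypeptidase that trims peptides cut by chymase, had 61.5, 41.6 and 181 CPM in ND1_cKO and 19.3, 15.3 and 20.7 CPM in control. It had the smallest fold of the 4 protease members, at a log2 fold change of 2.36 ± 0.57 (adjusted p = 0.0892). In all 4 protease genes the ND1_cKO lungs kept the same order, with replicate 3 highest and replicate 2 lowest. The highest ND1_cKO lung was between 4.35 times (Cpa3) and 10.5 times (Cma1) the lowest, whereas among controls that ratio was between 1.23 (Tpsb2) and 2.93 (Tpsab1).

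The promoters of some of these genes are shown because GATA factors such as Gata2 are known to act on mast cell genes. A part of Gata2 in the mast cell gene levels was not tested. The sequences are the 250 bases before the annotated start of each gene in RefSeq (build GRCr8), of which 8 of the 9 members had an entry. Capitals mark matches to the binding motif of GATA factors, spelled here as AGATAA, as the form AGATAG that ends in G, or as the forms that begin with T, TGATAA and likewise TGATAG, each on either strand.
Cpa3 (chr2:104673238-104673487, minus strand): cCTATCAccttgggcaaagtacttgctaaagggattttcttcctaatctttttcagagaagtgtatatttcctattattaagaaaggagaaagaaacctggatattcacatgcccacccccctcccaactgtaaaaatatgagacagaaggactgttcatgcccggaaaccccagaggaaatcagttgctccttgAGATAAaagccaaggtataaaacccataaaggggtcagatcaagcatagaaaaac
Cma1 (chr15:33390134-33390383, minus strand): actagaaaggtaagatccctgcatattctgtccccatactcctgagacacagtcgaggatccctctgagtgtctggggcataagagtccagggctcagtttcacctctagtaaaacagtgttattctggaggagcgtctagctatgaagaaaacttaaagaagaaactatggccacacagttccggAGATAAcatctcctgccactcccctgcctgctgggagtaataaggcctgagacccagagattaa
Mcpt1l1 (chr15:33876896-33877145, minus strand): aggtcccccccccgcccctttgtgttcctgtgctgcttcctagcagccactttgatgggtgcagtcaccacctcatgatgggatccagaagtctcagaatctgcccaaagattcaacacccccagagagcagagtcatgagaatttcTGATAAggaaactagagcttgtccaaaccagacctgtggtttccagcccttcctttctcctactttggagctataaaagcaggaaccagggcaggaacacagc
Tpsab1 (chr10:14867303-14867552, minus strand): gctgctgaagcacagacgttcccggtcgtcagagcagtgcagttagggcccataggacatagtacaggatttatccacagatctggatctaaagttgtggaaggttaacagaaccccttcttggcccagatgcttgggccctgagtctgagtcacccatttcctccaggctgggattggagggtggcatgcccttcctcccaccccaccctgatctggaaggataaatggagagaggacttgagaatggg
Kit (chr14:32978813-32979062, minus strand): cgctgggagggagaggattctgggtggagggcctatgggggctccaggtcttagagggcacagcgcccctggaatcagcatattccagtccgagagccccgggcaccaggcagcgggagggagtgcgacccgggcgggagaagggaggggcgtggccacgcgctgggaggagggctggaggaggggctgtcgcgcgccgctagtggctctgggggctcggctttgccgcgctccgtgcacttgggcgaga
Of the 8 members with a sequence, 3 held a match, against 27.0% of 33469 rat promoters of the same length, so the share among members was near that of promoters in general. Cpa3 had a match whose first base lay 55 bases before the start and another at 249, Cma1 had a match at 64, and Fcer1a, not printed, had a match at 93 on the other strand. Mcpt1l1 held a match at 103, and Tpsab1, Tpsb2, Kit, Hdc and Gata2 held none of these letters in this window. The Kit window was the richest in G and C, at 70.8%, against 40.8% in Cpa3 and 48.0% in Cma1. These matches are letters only and do not show binding.

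The IgE receptor consists of a ligand-binding alpha chain, a signal-amplifying beta chain and a gamma chain dimer that is shared with other Fc receptors. Fcer1a, the alpha chain, had 5.78, 9.91 and 25.2 CPM in ND1_cKO, against 3.41, 3.08 and 2.58 CPM in control. The groups did not overlap, and here ND1_cKO replicate 1 was the lowest (log2 fold change 2.17 ± 0.53, adjusted p = 0.0856). Ms4a2, the beta chain, had 18.2, 12.3 and 51.6 CPM in ND1_cKO and 4.59, 5.94 and 4.51 CPM in control, again without overlap (2.45 ± 0.55, adjusted p = 0.0727). Fcer1g, the gamma chain, which macrophages and other myeloid cells also use, differed little, with 184, 186 and 184 CPM in ND1_cKO and 194, 160 and 143 CPM in control (0.16 ± 0.12, adjusted p = 0.476). Fcer1g was named after its values were seen.

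Hdc, which makes histamine from histidine and is also expressed by basophils and neutrophils, did not follow the proteases. It had 8.42, 9.995 and 21.2 CPM in ND1_cKO, against 12.3, 11.3 and 9.57 CPM in control. ND1_cKO replicate 3 was above all controls and ND1_cKO replicate 1 below them (log2 fold change 0.26 ± 0.35, adjusted p = 0.716). The sign turned without ND1_cKO replicate 3, at -0.27. Slc18a2, the vesicular transporter that loads histamine and serotonin into granules, had 4.85, 4.75 and 13.0 CPM in ND1_cKO and 2.25, 2.21 and 2.20 CPM in control (1.76 ± 0.42, adjusted p = 0.0766). Tph1, the enzyme of serotonin synthesis used by rodent mast cells, had 4.42, 7.47 and 20.8 CPM in ND1_cKO and 1.07, 1.13 and 1.79 CPM in control (3.04 ± 0.62, adjusted p = 0.0576), and was named after its values were seen. Neither Slc18a2 nor Tph1 overlapped between the genotypes. Aoc1, a diamine oxidase that degrades histamine outside cells, overlapped, with 62.6, 78.6 and 256 CPM in ND1_cKO and 18.9, 33.9 and 66.9 CPM in control (1.73 ± 0.70, adjusted p = 0.227).

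Kit, the receptor for stem cell factor, on which mast cells depend, went the other way. It had 168, 126 and 145 CPM in ND1_cKO, against 237, 201 and 203 CPM in control, with no overlap (log2 fold change -0.55 ± 0.12, adjusted p = 0.067). Gata2, a transcription factor of mast cells, blood progenitors and endothelium, had 73.9, 58.3 and 69.2 CPM in ND1_cKO and 84.7, 86.0 and 106 CPM in control (-0.45 ± 0.12, adjusted p = 0.0988). Kit is also expressed by lung capillary endothelium. Of 16 endothelial markers tested, 7 fell and 0 rose, against 1.28% of all genes that fell, with a median log2 fold change of -0.55 and a summed level of 3222 to 3493 CPM in ND1_cKO, against 5052 to 5481 CPM in control. The 7 were Ptprb, Flt1, Tek, Ramp2, Cdh5, Sox18 and Erg. None of them passed without ND1_cKO replicate 1, control replicate 2 or control replicate 3, or without the replicate 3 libraries of both genotypes, and 3 passed without control replicate 1.

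Set against the endothelial markers, Kit overlapped between the genotypes. Its log2 CPM minus the mean log2 CPM of the 16 markers was 0.17, -0.11 and -0.03 in ND1_cKO and 0.21, -0.05 and -0.12 in control. The means were 0.008 ± 0.145 in ND1_cKO and 0.013 ± 0.176 in control (SD, n = 3 each), a difference of -0.005 (two-sided exact permutation test, p = 1), where the smallest p this design allows is 0.1. Against 7 general capillary markers the difference was -0.24 (exact two-sided permutation p = 0.4). For Gata2 the difference was 0.09 against the endothelial markers and -0.14 against the general capillary markers (exact two-sided permutation p = 0.3 for each). Permutation of 3 against 3 rats cannot show that the genotypes are alike. The part of endothelium in the Kit and Gata2 levels was not tested. Among the general capillary markers 0 of 7 passed with edgeR, with 1 called by DESeq2, against 11.5% of all genes. Their summed level was 1252 to 1424 CPM in ND1_cKO, against 1684 to 2306 CPM in control. The median log2 fold change was -0.41, with 5 of the 7 markers negative and 2 positive. Those with the lowest p were Plvap (-1.12 ± 0.26) and Sema3c (0.40 ± 0.15).

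**Figure D2:**
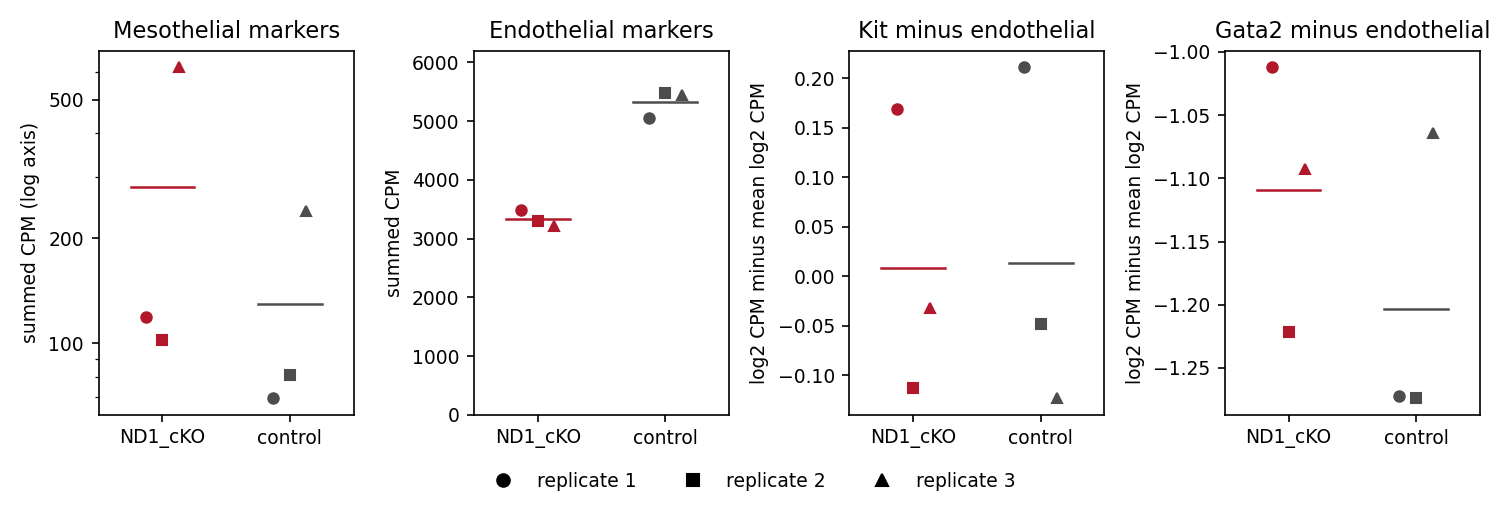
From left to right, the summed CPM of 6 mesothelial markers (log axis), the summed CPM of 16 endothelial markers, and the log2 CPM of Kit and of Gata2 minus the mean log2 CPM of the endothelial markers; points are rats, shapes are replicate numbers and lines are group means. The replicate 3 library was the highest of its genotype in mesothelial markers, endothelial sums separated the genotypes, and Kit relative to endothelium overlapped.

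Further chymases and related proteases lie beside Cma1. In RefSeq order, from Cma1 to Mcpt10, the locus holds 17 protein-coding genes, of which 8 are in the deposited table under the same symbol. Mcpt1l1, which carries the synonym rMCP-1, the name of the protease of the connective tissue type, had 45.6, 23.7 and 369 CPM in ND1_cKO, against 1.28, 1.46 and 10.4 CPM in control. No library overlapped, yet the standard error was larger than that of any member (log2 fold change 5.10 ± 1.46, adjusted p = 0.125), and the fold was the 7th highest of 16548 genes. Mcpt2, a symbol commonly used for the mucosal type protease, has no entry of that name among the locus genes, where rMCP-2 is a synonym of Mcpt1, so which of them its counts stand for is uncertain. It had 42.6, 33.2 and 16.4 CPM in ND1_cKO and 33.0, 14.9 and 19.5 CPM in control (0.45 ± 0.42, adjusted p = 0.581). The genotypes overlapped, and ND1_cKO replicate 3, the highest lung for Mcpt1l1, was the lowest ND1_cKO lung for Mcpt2. The ratio of Mcpt1l1 to Mcpt2 was 1.07, 0.713 and 22.6 in ND1_cKO and 0.0389, 0.0978 and 0.533 in control.

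Of the other genes of the locus, Mcpt9 (0.518, 1.63 and 0.589 CPM in ND1_cKO, against 2.52, 1.19 and 0.482 CPM in control) and Mcpt10 (2.13, 1.60 and 0.702 CPM in ND1_cKO, against 1.31, 0.756 and 0.344 CPM in control) overlapped between the genotypes. Mcpt1l3 was low throughout, with 0.845, 0.923 and 1.18 CPM in ND1_cKO and 0.183, 0.270 and 0.516 CPM in control (1.62 ± 0.47, adjusted p = 0.109). Mcpt3 and Mcpt4 had too few counts to test. Mcpt8, a granzyme-like protease of the locus whose mouse counterpart marks basophils, varied less among the ND1_cKO lungs. It had 57.0, 61.9 and 100.1 CPM in ND1_cKO, against 18.0, 16.8 and 20.4 CPM in control, and rose 3.97-fold (log2 1.99 ± 0.23, edgeR adjusted p = 0.0185), as did 1.14% of all genes in that direction by this test. It passed in 11 of 14 alternative fits and not without control replicate 1 (adjusted p = 0.055), control replicate 2 (0.121) or control replicate 3 (0.101). Mcpt8, Mcpt2, Mcpt9 and Mcpt10 were named after their values were seen, and reads of such close relatives may be shared or lost in counting.

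**Figure D3:**
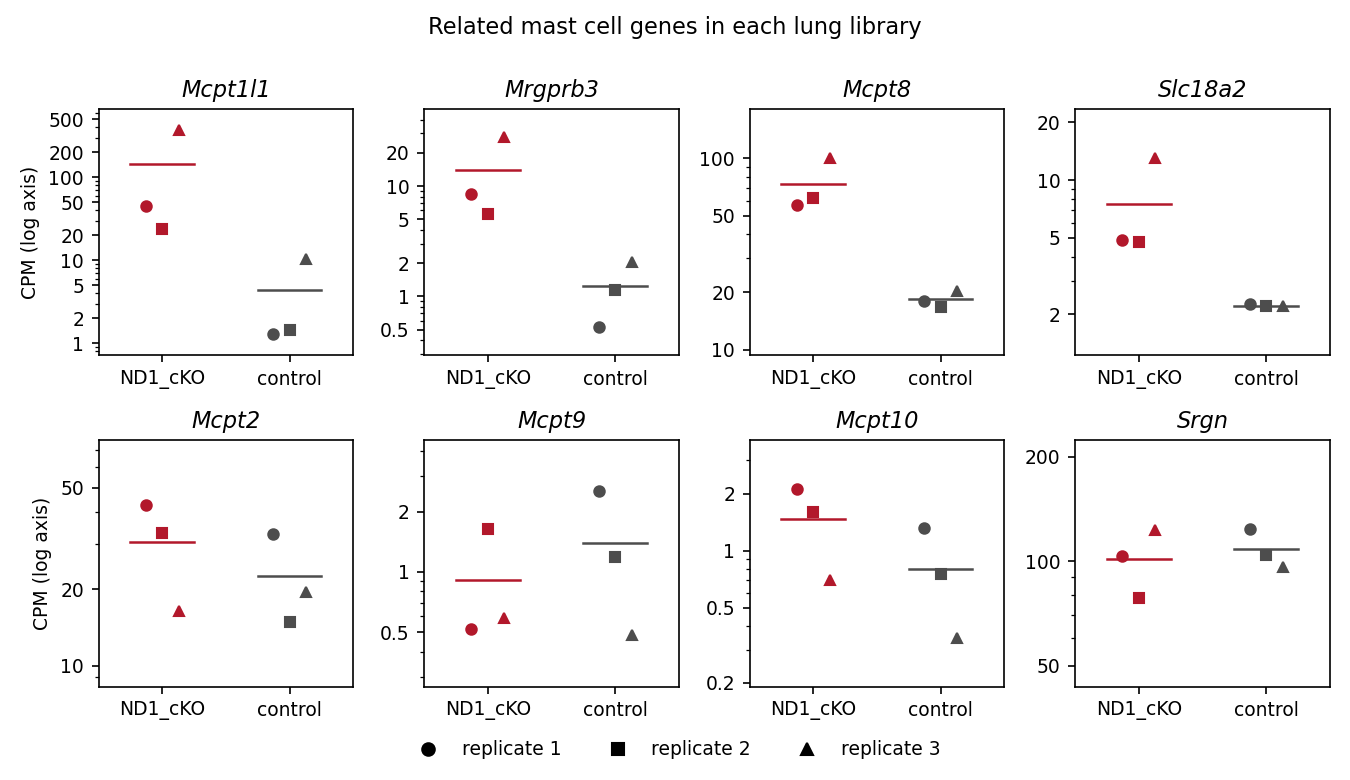
Level of 8 further granule and receptor genes in every library, in CPM on a log axis; points are rats, shapes are replicate numbers and lines are group means. Among them are Mcpt8, whose mouse counterpart marks basophils, and Srgn, which many blood cells make. The ND1_cKO points of Mcpt1l1, Mrgprb3, Mcpt8 and Slc18a2 all sit above the control points, whereas those of Mcpt2, Mcpt9, Mcpt10 and Srgn overlap with them.

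Of 20 other granule genes listed, 14 were in the table and 10 were tested, and 0 passed with edgeR or limma-voom. DESeq2 called 4 of the 10 (3 higher, 1 lower), against 5.97% of all genes higher and 5.56% lower. Their median log2 fold change was 0.43, with 7 of 10 positive. Srgn, the serglycin core protein that many blood cells make, overlapped, with 103, 78.3 and 123 CPM in ND1_cKO and 124, 104 and 96.3 CPM in control. Srgn was named after its values were seen.

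Receptors and ligands of mast cells split. Mrgprb3, the rat counterpart of the mouse receptor through which basic peptides degranulate connective tissue mast cells, had 8.42, 5.62 and 27.6 CPM in ND1_cKO, against 0.524, 1.13 and 2.07 CPM in control (3.50 ± 0.78, adjusted p = 0.071). Mrgprx2, the symbol of the human receptor of that kind, had 1.39, 1.11 and 4.80 CPM in ND1_cKO and 0.210, 0.432 and 0.207 CPM in control (3.08 ± 0.70, adjusted p = 0.0671), again with every ND1_cKO lung above every control. Of the 16 listed genes, 1 rose and 1 fell, with a median of 0.06, against 1.14% and 1.28% of all genes. DESeq2 called 6 of the 16 higher and 2 lower, against 5.97% and 5.56% of all genes. Il33, the alarmin that activates mast cells through Il1rl1, fell to 163, 201 and 196 CPM in ND1_cKO, against 372, 352 and 409 CPM in control (-1.02 ± 0.11, adjusted p = 0.0162). Cd63, a membrane protein of granules and lysosomes that most cells express, rose (0.62 ± 0.11, adjusted p = 0.042). Kitlg, which encodes stem cell factor, had 278, 269 and 273 CPM in ND1_cKO and 318, 361 and 358 CPM in control (-0.34 ± 0.08, adjusted p = 0.079). Il1rl1, which is also on type 2 innate lymphoid cells, overlapped between the genotypes (1.09 ± 0.41, adjusted p = 0.198). Mrgprb3, Mrgprx2 and Kitlg were named after their values were seen. In this list 0 passed without ND1_cKO replicate 1 or without control replicate 2 or 3, and 1 passed without ND1_cKO replicate 2 or 3.

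Downstream of the IgE receptor, 0 of 17 signalling genes rose and 1 fell, with a median of -0.13, in a test that called 1.28% of all genes lower. DESeq2 called 1 higher and 5 lower, against 5.97% and 5.56% of all genes. Limma-voom with library quality weights called 1 higher and 2 lower, against 5.74% of all genes in either direction. The gene that fell with edgeR was Grap2, an adaptor best known from T cells (-1.09 ± 0.17, adjusted p = 0.033). Without ND1_cKO replicate 1 or without control replicate 2 or 3, 0 of this list passed, and 2 passed without ND1_cKO replicate 2. Of 4 tested histamine pathway genes 0 passed (median 1.11), and of 5 eicosanoid enzymes 0 passed (median -0.02). DESeq2 called 1 histamine pathway gene and 2 eicosanoid enzymes, against 11.5% of all genes. Hpgds, the prostaglandin D2 synthase of mast cells, had 10.5, 10.8 and 19.8 CPM in ND1_cKO and 7.05, 6.24 and 5.025 CPM in control, without overlap (1.16 ± 0.28, adjusted p = 0.0775). Ltc4s, the leukotriene C4 synthase, had 1.58, 2.12 and 3.26 CPM in ND1_cKO and 5.35, 4.05 and 4.23 CPM in control (-0.97 ± 0.31, adjusted p = 0.139), also without overlap and in the opposite direction. Of 10 lineage transcription factors 0 passed with edgeR (median 0.07, 6 of 10 positive). DESeq2 called 1 higher and 2 lower, against 5.97% and 5.56% of all genes. The lowest p were those of the blood and endothelial factors Lmo2 (-0.48 ± 0.11) and Tal1 (-0.60 ± 0.16). Mitf, which DESeq2 called higher, had 28.0, 26.8 and 32.2 CPM in ND1_cKO and 23.8, 19.4 and 14.6 CPM in control (0.59 ± 0.18, edgeR adjusted p = 0.128). Mitf was named after its values were seen.

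By the closeness of their profile over the 6 libraries to the mean of the 4 granule proteases, the 5 nearest of 13570 named genes whose level averaged 1 CPM or more over all 6 libraries, members left out, were Thbs2, Mrgprb3, Prss22, Aldh1l2 and Ntrk2. Closeness is the root mean square difference of centred log2 CPM, which was 0.306 for Thbs2, 0.355 for Mrgprb3, 0.360 for Prss22, 0.365 for Aldh1l2 and 0.409 for Ntrk2, while the protease profile itself spanned 5.12. Thbs2, which encodes the matricellular protein thrombospondin 2, had 34.4, 17.1 and 132 CPM in ND1_cKO and 5.32, 6.45 and 7.43 CPM in control. Ntrk2, the receptor for brain-derived neurotrophic factor, had 43.8, 22.1 and 139 CPM in ND1_cKO and 6.50, 3.27 and 4.99 CPM in control. Prss22, a serine protease of the tryptase family that epithelia express, passed the test (log2 fold change 3.78 ± 0.68, adjusted p = 0.0438) but not without ND1_cKO replicate 1 (0.085) or control replicate 1 (0.0956), 2 (0.165) or 3 (0.167), nor with limma-voom (0.115) or limma-voom with library quality weights (0.0572). Aldh1l2, a mitochondrial folate enzyme, was at 3.12 ± 0.63 (adjusted p = 0.0541). Prss22 and Aldh1l2 were under 1 CPM in every control and met that minimum through the ND1_cKO lungs. The likeness rests on the genotype difference and on ND1_cKO replicate 3 and is given without a test. Since these genes were picked by that likeness, their adjusted p values are no separate support for a difference.

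Markers of other blood cells were compared in the same libraries. Of 4 basophil markers tested 0 passed (median -0.13), and Prss34, a basophil protease, was at 0 CPM in 5 of the libraries, with a highest value of 0.027 CPM in control replicate 2. Mcpt8, whose mouse counterpart marks basophils, was not in this list, and it rose (1.99 ± 0.23, edgeR adjusted p = 0.0185). A part of basophils in the levels of Mcpt8 and of the members was not tested. Summed basophil markers ranged from 149 to 174 CPM in ND1_cKO and from 144 to 151 CPM in control, mainly through Cebpa (0.18 ± 0.09), which alveolar macrophages and type 2 cells also express, with Il3ra next in p (-0.05 ± 0.11). Eosinophil markers (0 of 5 passed, median -0.22) overlapped, at 23.0 to 78.5 CPM in ND1_cKO and 34.1 to 58.4 CPM in control, with the lowest p for Siglec5 (-0.57 ± 0.32) and Prg2 (-0.93 ± 0.83). Neutrophil markers (0 of 7, median 0.35) ranged from 87.4 to 227 CPM in ND1_cKO and from 76.8 to 136 CPM in control, with the lowest p for Mmp8 (1.10 ± 0.72) and S100a9 (0.70 ± 0.46). In these 3 lists DESeq2 also called 0.

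Mesothelial markers moved with single libraries. Their summed level was 119, 102 and 619 CPM in ND1_cKO replicates 1, 2 and 3, against 69.5, 81.2 and 239 CPM in control replicates 1, 2 and 3, and 0 of 6 passed with edgeR or DESeq2 (median 0.93). The lowest p were those of Msln (1.60 ± 0.78) and Wt1 (2.48 ± 1.29). The replicate 3 libraries, highest in mesothelium, were also the highest of their genotype in Tpsab1, Tpsb2, Cpa3, Cma1, Mcpt1l1 and Mrgprb3, whereas control replicate 3 was the lowest control in Fcer1a and Ms4a2. ND1_cKO replicates 1 and 2 had less of the mesothelial markers than control replicate 3. Over control replicate 3, the 6 higher members were between 2.24-fold (Fcer1a) and 8.76-fold (Tpsab1) in ND1_cKO replicate 1, and between 1.8-fold (Cma1) and 4.91-fold (Tpsab1) in ND1_cKO replicate 2. These folds rest on a single control lung, and a part of mesothelium in the mast cell gene levels was not tested. Without the replicate 3 libraries of both genotypes, an alternative chosen after seeing the data, the log2 fold changes were 4.07 ± 0.36 for Tpsab1 (adjusted p = 0.0331), 2.60 ± 0.26 for Tpsb2 (0.0393), 2.83 ± 0.33 for Cma1 (0.046), 1.58 ± 0.22 for Cpa3 (0.0612), 1.53 ± 0.25 for Ms4a2 (0.0699) and 1.27 ± 0.31 for Fcer1a (0.131). The number of members called was then 3 of 9, against 0.404% of 16604 genes, with n = 2 rats per genotype. ND1_cKO replicate 3 was the highest library in 7 members, so leaving it out reduced the spread of those genes. These calls are therefore no separate support for a difference in the members.

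**Figure D4:**
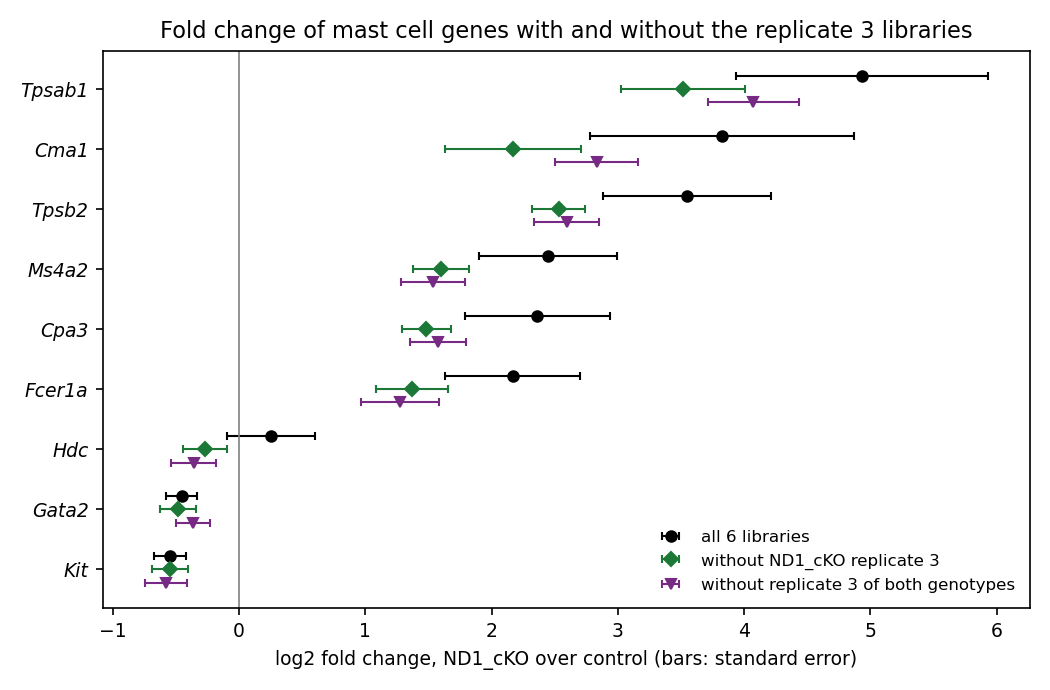
Log2 fold change of each mast cell gene, ND1_cKO over control, from edgeR; points are estimates, bars are standard errors, and colours and shapes give the fit with all 6 libraries, without ND1_cKO replicate 3, and without the replicate 3 libraries of both genotypes. Leaving out ND1_cKO replicate 3 lowered Tpsab1 to 3.52 and Cma1 to 2.17 with shorter bars for all 6 of the higher genes, and turned the sign of Hdc.

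ND1_cKO replicate 3 set much of the size and of the error. Without it 4 of 9 members passed, against 2.95% of 16799 genes: Tpsb2 (log2 fold change 2.53 ± 0.21, adjusted p = 0.0078), Cpa3 (1.48 ± 0.19, 0.0212), Ms4a2 (1.60 ± 0.22, 0.0212) and Tpsab1 (3.52 ± 0.49, 0.0339). ND1_cKO replicate 3 was the highest library in 7 members, so these calls too are no separate support for a difference in the members. Without ND1_cKO replicate 2 the members past the threshold were Tpsb2 (0.042) and Ms4a2 (0.0455), 2 of 9, against 2.15% of all genes. With any of the other 4 libraries left out 0 of 9 passed, in fits that called 0.137% of all genes (without ND1_cKO replicate 1), 1.09% (without control replicate 1), 0% (without control replicate 2) and 0.0534% (without control replicate 3). With same-numbered rats as a block, 2 of 9 members were called, against 1.58% of all genes, and with a filter at a mean of 1 CPM, 1 of 9, against 2.61%.

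Markers of further tissues and lung cell types differed in level and direction from list to list. Airway cartilage markers summed to 5.05 to 8.84 CPM in ND1_cKO and 3.02 to 4.00 CPM in control, with 0 of 2 tested genes past the threshold, Col9a2 (0.93 ± 0.35) and Snorc (0.77 ± 0.40), and with at most 11 counts of Acan, 3 of Col2a1 and 5 of Matn1 in any library. Adipose markers summed to 5.75 to 7.88 CPM in ND1_cKO and 7.92 to 10.04 CPM in control, with 0 of 3 past the threshold and 1 by DESeq2, against 11.5% of all genes. Those with the lowest p were Cidec (-1.36 ± 0.30) and Adipoq (0.78 ± 0.80). Skeletal muscle markers summed to 112 to 241 CPM in ND1_cKO and 3.17 to 7.55 CPM in control, most of it in ND1_cKO from Acta1. Acta1 rose (6.67 ± 0.62) as 1 of 3 tested (median 5.74), against 1.14% of all genes that rose. Myh1, also of muscle (5.74 ± 1.76), reached 20.7 CPM in ND1_cKO replicate 3, while Ckm had 0.0281 to 0.272 CPM in ND1_cKO and 0.103 to 2.49 CPM in control. Blood progenitor markers did not pass (0 of 6, also with DESeq2; median -0.23; Flt3 at -0.51 ± 0.22 and Myb at 0.40 ± 0.21). Of the markers of type 2 innate lymphoid cells, Arg1, which macrophages also make, rose (1.44 ± 0.26) as 1 of 6 (median 0.004), against 1.14% of all genes. Il5 had at most 1 count and Il13 at most 7 in any library. Arg1 passed without control replicate 1 and not without any other single library. Tuft cell markers fell in 6 of 7 tested (median -2.88), against 1.28% of all genes that fell. The 6 were Sh2d6, Avil, Gnat3, Trpm5, Pou2f3 and Sh2d7. Without ND1_cKO replicate 1 or control replicate 1, 3 tuft cell genes passed, and 0 passed without control replicate 2 or 3, as was so of Acta1, which was also lost without ND1_cKO replicate 1. The part of mesothelium, muscle and the other tissues in the mast cell gene levels was not tested.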

How the data were processed

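RNA-seq of 6 rat lungs was used as the deposited table of whole-number read counts per gene symbol, whose columns were matched to samples by the names in the sample descriptions. Per the submitters' processing notes, the authors used fastp, HISAT2, HTSeq, DESeq2 and R 4.3.3. Genome build, annotation and strand setting: not given in the sources used here; therefore reads of overlapping, antisense or near-identical genes cannot be told apart. No 2 libraries agreed within sampling noise (chi-square per degree of freedom at least 23.7). No column was left without a sample (0).

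From the counts, genes kept by filterByExpr (16548) were tested with the two-sided quasi-likelihood F test of edgeR 4.0.16 in R 4.3.3 (robust, TMM, genotype only), with Benjamini-Hochberg adjustment over all of them and a threshold of 0.05. Alternatives used DESeq2 1.42.0 and limma 3.58.1. Each standard error was obtained by dividing the size of the log2 fold change by the root of its F value. Levels are CPM with TMM factors, and log2 CPM uses a prior count of 2. The fit was tested on simulated data. Permutation tests were exact.

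The members, the 18 other gene lists and the tests were chosen with earlier results of these data known. The genes named are all members, in each other list those past the threshold and those with the lowest p (2 each, 3 for granule genes), the 5 genes nearest in profile, and genes said to be named after their values were seen. A gene that this rule names is not reported here. Promoter sequences and gene order are from RefSeq (GRCr8), matched by symbol.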

Additional observations from a re-analysis of the deposited data

How the results depend on the processing

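The number of genes called was 400 with edgeR and all libraries, 1908 with DESeq2, 950 with library quality weights, 262 with the replicate block and 67 without the replicate 3 libraries of both genotypes, and between 0 and 495 with 1 library left out. The count of mast cell members was 0, and it was 1 with a mean of at least 1 CPM (Tpsb2), 8 with DESeq2, 2 with the replicate block (Tpsab1 and Cma1), 3 without both replicate 3 libraries, and between 0 and 4 with 1 library left out. Same-numbered libraries of the genotypes correlated at 0.165, 0.0235 and 0.135 in their deviations from the group means across genes, which is not above 0.1 in every pair, so the numbers were not taken to pair the rats, although each ND1_cKO library correlated best with its own number. With the block, 2 of the 7 endothelial calls (Ptprb and Tek) and 0 of the IgE signalling list passed, Mcpt1l1 passed, and Prss22 did not (edgeR adjusted p = 0.0578). Under 14 alternative fits, 8 of the 9 members kept their sign. Hdc was at -0.11 with library quality weights, between -0.27 and 0.48 with 1 library left out (lowest without ND1_cKO replicate 3) and at -0.36 without both replicate 3 libraries, and Mcpt9 was between -1.35 and 0.12 with 1 library left out (highest without control replicate 1). The difference of Kit from the endothelial markers ranged from -0.0853 to 0.0943 with 1 library left out. The cause of these changes was not tested. The lowest count of a member in a library was 56. With 3 rats per genotype, levels in ND1_cKO lungs spread up to 10.5-fold (Cma1).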
